A study of Mus musculus with 2 samples.

Results

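The Toll-like receptors Tlr1 to Tlr9 and their shared adaptor Myd88 were read from 2 single-colour Agilent arrays of cultured mouse fat cells, 1 array per cell population. The 10 genes were found by symbol through the RefSeq transcript of each probe. They were represented by 11 probes, of 20884 named genes and 39425 probes in all. One population, SPAD, was differentiated small proliferative adipocytes, and the other, SVCD, was differentiated stromal vascular cells. These names follow the sample titles; the shorter sample descriptions give only SPA and SVC, without the word differentiated. Both came from collagenase-digested epididymal fat of male C57/BL mice, for which no age or genetic change is given. The small proliferative adipocytes were the cells that sedimented when the floating fraction was spun again, and the stromal vascular cells were those left below the floating layer after the initial spin. The cultures were brought to 90% confluency, kept for 3 days with insulin, dexamethasone and IBMX, a mixture that induces fat cell differentiation, and then for 2 days in plain medium. The protocol names no purification by a cell surface marker. The labels do not say how many animals or cultures stood behind each RNA.

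With 1 array per group, no difference has a replicate check, no test was made and no p-value is given. Values are processed spot intensities. A log2 difference is SPAD minus SVCD after each array was scaled to its 75th percentile, an intensity of 622 for SPAD and 678 for SVCD. Errors (±) come from SDs between repeat spots, combined over both arrays at the signal that the probe had on each. The SD of each array was divided by the square root of the number of spots averaged for the probe. Where an SD between spot pairs is named, it was not divided. The SDs ran from 0.44 and 0.46 for single spots of the dimmest probes of SPAD and SVCD to 0.06 for the brightest on either array. The errors cover spot-to-spot error only, and leave out differences between cultures, extractions and labelling reactions. Signals were called well above background for 64.5% of the SPAD probes and 65.6% of the SVCD probes, and no non-control spot was saturated.

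Toll-like receptors sense molecules of microbes and of damaged cells. Some sit at the cell surface and bind lipids or proteins of microbes, while others sit in endosomes and bind nucleic acids. After binding, most recruit the adaptor Myd88, which assembles Irak kinases and leads through Traf6 to NF-kB and to cytokine genes. Tlr3 instead signals through the adaptor Ticam1, and Tlr4 uses both routes. Macrophages and other myeloid cells carry many of these receptors. Fat cells and their precursors have been described to carry several, Tlr4 above all, where bacterial lipopolysaccharide evokes inflammatory genes.

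Of the 9 receptors, 5 were at least 2-fold lower in SPAD and none was at least 2-fold higher. Tlr1, Tlr2, Tlr3, Tlr7 and Tlr8 made up the lower set, with 2 of them seen on the SVCD array alone. Tlr4, Tlr6, Tlr9 and Myd88 lay within 2-fold, and Tlr5 was detected on neither array, detected meaning called well above background. Of the 7 members detected on both arrays, 3 were at least 2-fold lower in SPAD, against 13.3% of the 14074 named genes so measured. None of these 7 was at least 2-fold higher, where the share over the same genes was 14.4%. With bounds included, 5 of 9 members were lower, against 14.1% of 15631 genes detected on at least 1 array, and the member median was -1.13 against 0.06. Which receptors belong to the group was known from the gene family, but the group was singled out with results of these arrays in view, so these shares are a description.

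**Figure D1:**
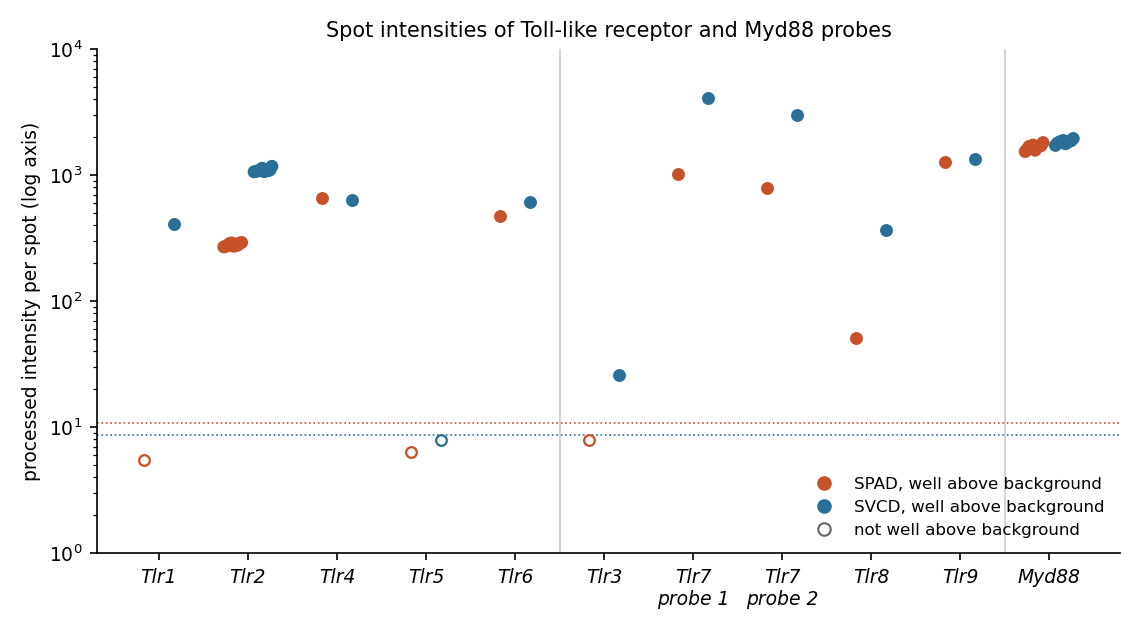
Processed intensity of every spot (log axis) for the probes of surface receptors (left), endosomal receptors (middle) and Myd88 (right) on the SPAD and SVCD arrays. Open circles are spots not well above background, and dotted lines give each array's lowest signal well above background, 10.8 for SPAD and 8.60 for SVCD. The SPAD spots of Tlr1, Tlr2, Tlr7 and Tlr8 lie clearly below the SVCD spots. The SPAD spot of Tlr3 also lies below, but its spots are dim on both arrays. Those of Tlr4, Tlr6, Tlr9 and Myd88 lie close to the SVCD spots.

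Upstream sequence is shown for 3 receptors that were lower in SPAD and for Myd88, which was not, so that the regions before their start sites can be set side by side. Each line gives 250 bases that end just before the annotated start, on the coding strand, from RefSeq on GRCm38.p6. Capitals mark matches, on either strand, to the NF-kB motif, to GAGGAA, letters common in sites of the myeloid ETS factor PU.1, or to a pair of GAAA copies with any 2 bases between them, letters of interferon-regulatory factor (IRF) sites. The Tlr2 window lies at chr3:83841609-83841858, the Tlr8 window at chrX:167264330-167264579, the Tlr1 window at chr5:64933559-64933808 and the Myd88 window at chr9:119340019-119340268, all on the minus strand.
Tlr2: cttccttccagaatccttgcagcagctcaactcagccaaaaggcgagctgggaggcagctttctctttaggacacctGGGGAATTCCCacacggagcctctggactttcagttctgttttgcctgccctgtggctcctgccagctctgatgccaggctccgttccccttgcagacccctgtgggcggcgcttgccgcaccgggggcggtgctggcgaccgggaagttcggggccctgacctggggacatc
Tlr8: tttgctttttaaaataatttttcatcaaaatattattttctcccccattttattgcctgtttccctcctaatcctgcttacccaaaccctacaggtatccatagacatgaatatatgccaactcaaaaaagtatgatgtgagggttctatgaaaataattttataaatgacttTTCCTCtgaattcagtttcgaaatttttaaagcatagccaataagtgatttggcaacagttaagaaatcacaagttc
Tlr1: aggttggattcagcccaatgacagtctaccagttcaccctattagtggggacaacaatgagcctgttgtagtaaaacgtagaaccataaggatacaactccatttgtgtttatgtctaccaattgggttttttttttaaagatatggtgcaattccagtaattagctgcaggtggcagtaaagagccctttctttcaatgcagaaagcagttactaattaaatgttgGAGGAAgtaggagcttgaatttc
Myd88: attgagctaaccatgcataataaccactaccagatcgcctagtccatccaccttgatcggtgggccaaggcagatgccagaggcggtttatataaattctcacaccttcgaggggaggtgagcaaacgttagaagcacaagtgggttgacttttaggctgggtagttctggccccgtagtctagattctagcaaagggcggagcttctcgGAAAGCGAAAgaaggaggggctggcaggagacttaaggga

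The table of start sites held 10 windows for 8 of the members; Tlr4 and Tlr7 are only named here. The capitals in Tlr2 are 3 overlapping NF-kB matches on both strands, from 173 to 163 bases before the start. Tlr8 has GAGGAA on the minus strand, 77 to 72 bases before the start, and this Tlr1 window has it 23 to 18 bases before the start. The other Tlr1 window holds none of the 3 motifs. Myd88 has an IRF match from 40 to 31 bases before its start. Among the windows not printed, Tlr3 has 1 NF-kB match, Tlr9 has 1 GAGGAA match, 1 of the Tlr6 windows has 2 overlapping IRF matches, and the Tlr5 window and the other Tlr6 window have none. Over 32851 windows of the same length, the NF-kB motif was found in 7.25%, GAGGAA in 23.3% and the IRF motif in 2.98%. The lower receptors share no single one of these motifs, and such matches are letters in a window, not measured sites.

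Among the 5 surface receptors, Tlr1 and Tlr2 were lower in SPAD. Tlr2, which binds bacterial lipoproteins, was printed 10 times on each array. Its SPAD spots ran from 269.8 over a median of 278 to 292.5, and its SVCD spots from 1063 over 1086 to 1177. The spots of the arrays did not overlap, and every SVCD spot was brighter than every SPAD spot. After scaling, the 10 spot pairs gave differences from -1.88 to -1.76, with a mean of -1.84 ± 0.04 (SD between spot pairs, 1 array per group), or 3.58-fold lower in SPAD. Of the genes measured on both arrays, 5.68% had a difference at or below this.

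Tlr1 pairs with Tlr2 to recognise triacylated lipopeptides. Its single spot gave 407 in SVCD and 5.45 in SPAD, where the scanner software's own error was 2.20. It was well above background in SVCD only, so that Tlr1 was at least 34.6-fold lower in SPAD. The fold is a bound, set against the lowest SPAD signal well above background, and it depends on the background correction: with normexp the difference was -2.88. Tlr1 thus had the largest difference of all members, and of the 873 genes seen on the SVCD array alone, 38.1% had a bound of 2-fold or more.

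Tlr6, the other partner of Tlr2 and the gene next to Tlr1 on chromosome 5, did not follow Tlr1. Its spot read 474 in SPAD and 608 in SVCD, a difference of -0.23 ± 0.10, and 34.8% of genes lay at or below it. The 2 genes stand side by side among protein-coding genes, yet 1 was within 2-fold and the other at least 34.6-fold apart. Tlr4, the receptor for lipopolysaccharide, read 664 in SPAD and 637 in SVCD. Its difference of 0.18 ± 0.09 exceeded the spot error but fell well short of 2-fold, and turned to -0.66 when the arrays were scaled to their spike-in controls. Tlr5, which binds flagellin, gave 6.30 and 7.91 with software errors of 2.38 and 2.00. Neither signal was well above background, so no fold is given.

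Of the 4 endosomal receptors, Tlr7, Tlr8 and Tlr3 were lower in SPAD and Tlr9 was not. Tlr7, a receptor for single-stranded RNA, was read by 2 probes of the same transcript. The first gave 1014 in SPAD and 4091 in SVCD, a difference of -1.89 ± 0.08, or 3.70-fold lower. The other gave 795.5 and 3021, a difference of -1.80 ± 0.08. The gap of 0.09 between the probes was within their combined spot error of 0.11, and 5.43% of genes lay at or below the first.

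Tlr8, the gene next to Tlr7 on the X chromosome and a further receptor of RNA, gave 51.0 in SPAD and 365 in SVCD. The SPAD spot was dim but well above background. The difference of -2.71 ± 0.14 (6.56-fold lower) was the largest among the members measured on both arrays, and 2.59% of genes lay at or below it. Unlike the pair on chromosome 5, both genes of this pair were lower. With the normexp background correction the Tlr8 difference shrank to -1.84.

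Tlr3, which binds double-stranded RNA, was dim throughout, with a signal of 25.7 (software error 3.34) in SVCD and 7.94 (2.81) in SPAD. It was well above background in SVCD only and was at least 2.18-fold lower in SPAD. This call rests on 1 dim spot per array, and with the normexp background correction the bound was -0.17, short of 2-fold. Tlr9, the receptor for unmethylated CpG DNA, read 1274 in SPAD and 1336 in SVCD. Its difference of 0.06 ± 0.08 was within the spot error, and its sign changed with the scaling.

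Myd88, on which all these receptors but Tlr3 depend, was printed 10 times on each array. Its spots ran from 1542 over a median of 1694 to 1817 in SPAD and from 1723 over 1843 to 1957 in SVCD. The ranges overlapped. After scaling, the spot pairs lay between -0.04 and 0.02 with a mean of -0.01 ± 0.03 (SD between spot pairs), and 5 of 10 were below 0. Of the genes measured on both arrays, 99.0% lay at least as far from 0 as Myd88 under this scaling. Scaled to the spike-ins, its difference was -0.85.

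**Figure D2:**
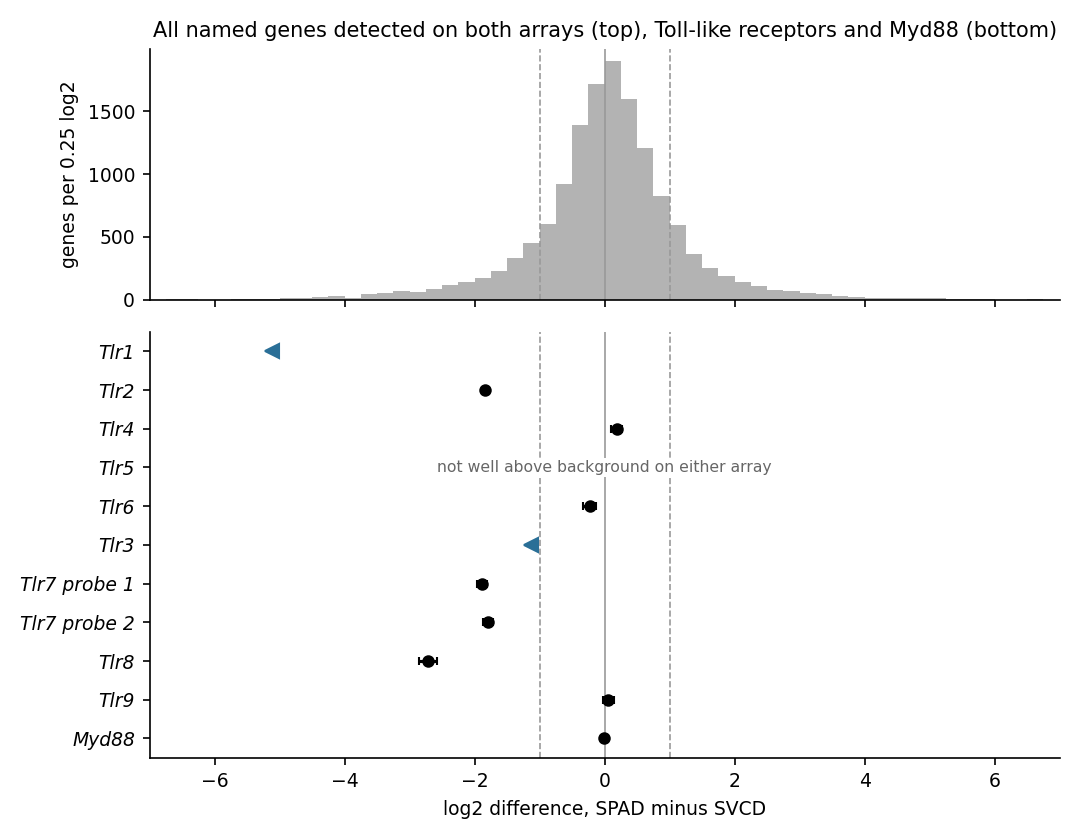
Top, numbers of all named genes detected on both arrays by log2 difference (SPAD minus SVCD). Bottom, log2 difference of each Toll-like receptor and Myd88 probe, with the spot error of the probe's averaged spots as bars. Left-pointing triangles are bounds of genes seen on the SVCD array alone, and dashed lines mark 2-fold. Tlr8, Tlr7 and Tlr2 lie between -2.71 and -1.80, the bounds of Tlr1 and Tlr3 at -5.11 and -1.13, and the other measured genes near 0.

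Scaling bears on these values, since spike-in scaling moved the median of all genes measured on both arrays from 0.07 to -0.77. Relative to that median, the spike-in differences of Tlr4, Tlr6, Tlr9 and Myd88 were 0.11, -0.31, -0.01 and -0.08. Tlr6 itself then read -1.07 and passed 2-fold. Tlr1, Tlr2, Tlr7 and Tlr8 were at least 2-fold lower in every setting that gave them a value, 10 for Tlr1 and 11 for each of the others.

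**Figure D3:**
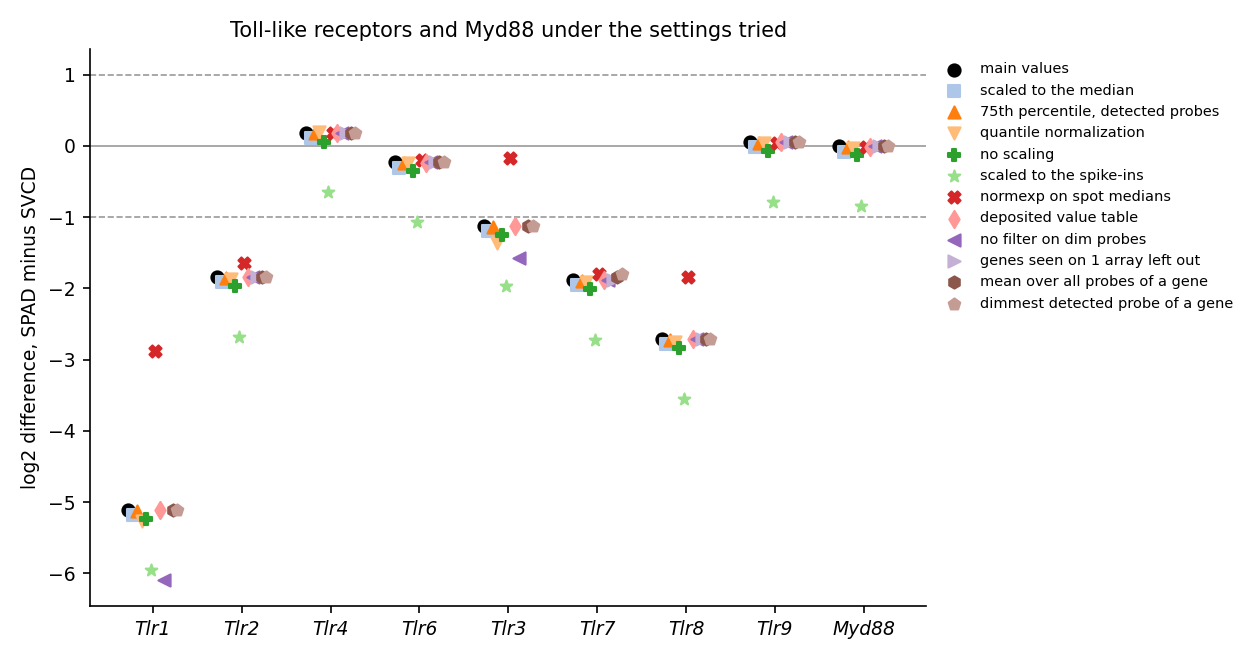
Log2 difference (SPAD minus SVCD) of each member under the main values and 11 other settings, with bounds shown at their value; dashed lines mark 2-fold. Spike-in scaling lowered every member, Tlr6 to -1.07, and the normexp correction drew the dim Tlr1, Tlr3 and Tlr8 towards 0, to -2.88, -0.17 and -1.84.

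Markers of macrophages, which carry many Toll-like receptors, moved in the same direction. Of 20 macrophage markers, 19 had a matched probe (Cd68 had none), and 14 were at least 2-fold lower in SPAD and none at least 2-fold higher, with a median of -2.72. Their summed scaled signal was 340 in SPAD and 723 in SVCD, in multiples of the 75th percentile. Of the 19, 17 were well above background on both arrays and 2 in SVCD alone. Adgre1, which encodes the macrophage antigen F4/80, read 4969 in SPAD and 13510 in SVCD, a difference of -1.32 ± 0.08. Csf1r, a growth factor receptor of macrophages, differed by -4.07 on its brightest probe and by -4.03 and -1.64 on its others. The pan-leukocyte gene Ptprc differed by -1.13.

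The largest differences of that list were those of the leukocyte actin regulator Coro1a (-6.72), Cx3cr1 (at least 54.8-fold lower), Fcgr1 (at least 34.6-fold lower) and Aif1 (-4.72). Cx3cr1 and Fcgr1 were not well above background in SPAD, and the scavenger receptor gene Cd163 and Aif1 were dim there, at 25.7 and 60.4. Lyz2, the lysozyme gene, was bright on both arrays, at 98430 and 84460, and was higher in SPAD by 0.35. The other markers within 2-fold were Tyrobp (-0.90), Fcer1g (-0.75), Laptm5 (-0.50) and Itgam (-0.86 on its brightest probe). The other Itgam probes differed by -1.79 and -1.65. Fewer macrophages and less RNA per macrophage cannot be told apart in RNA of a whole culture. The part of macrophage RNA in the receptor differences was not tested. Under the main scaling this list ran from -6.72 to 0.35. Every detected member lay within that span, Tlr1 and Tlr3 at their bounds. The span is wide, and its upper end is Lyz2. The median of all genes measured on both arrays (0.07) lay in it too, so lying within it says nothing particular about the members.

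Other cell types that carry Toll-like receptors gave mixed values. Of the B cell and plasmacytoid dendritic cell markers, 5 of 6 were detected, 2 of them at least 2-fold higher in SPAD and none lower, with a median of 0.69. Cd79b, a subunit of the B cell receptor complex, was 6.52-fold higher (144.7 in SPAD and 24.2 in SVCD). Its partner Cd79a was seen in SPAD alone, at 16.4, with a bound of 1.05 that reached 2-fold in 5 of 10 other settings. Tcf4 and Bst2 differed by 0.69 and -0.35. Scaled to the spike-ins, 1 marker of this list was higher and 1 lower, and the median was -0.15. The B cell gene Ms4a1 was detected on neither array. Siglech, a receptor of plasmacytoid dendritic cells and microglia, was bright on both arrays, at 73360 and 70320, although its other probe was not well above background. Of 6 neutrophil markers with a probe, 5 were detected and 2 were higher, S100a8 by 2.83 and S100a9 at least 4.32-fold, with a median of 0.82. Elane, Mpo and Csf3r differed by 0.82, 0.62 and 0.50. None of the 4 T cell markers detected reached 2-fold; Cd3d was seen in SPAD alone with a bound of 0.98, and Cd3e, Cd4 and Cd8a differed by -0.26, -0.11 and 0.11.

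Markers of fat, vessel and stromal cells differed as well. Endothelial markers were at least 2-fold higher in SPAD for 10 of 12 genes, with Cdh5 at 3.00 and Pecam1 at 2.02. None was at least 2-fold lower on its brightest probe, but Vwf differed by -0.92 and Kdr by -0.49. The other Kdr probe, printed 10 times, differed by -1.94. The largest differences were those of Sox17 (3.74), Erg (3.43), Robo4 (3.41), Esam (3.24) and Emcn (3.22). Of 11 mature adipocyte markers detected, 9 were higher and 1 was lower. The lower one was Lpl, at 2806 in SPAD and 20820 in SVCD (-2.77, and -2.92 on its other probe). Cebpa differed by -0.43. Adipoq differed by 4.02 and Pparg by 1.98. Car3 (8.56), Cfd (7.34), Retn (4.50) and Plin1 (4.17) differed by more than Adipoq. Adipoq, the adiponectin gene, read 336 in SPAD and 22.7 in SVCD, Cfd, which encodes adipsin, read 7540 and 50.6, and Fabp4, a fatty acid carrier, read 108500 and 31260. Cidec differed by 3.59 on its brighter probe but by -0.004 on a dim one, and Lep, the leptin gene, was detected on neither array. Mesothelial markers were lower for 4 of 7. Krt8, Krt18 and Msln differed by -5.58, -5.42 and -4.55, Lrrn4 was at least 7.97-fold lower, and Wt1 differed by -0.73. Smooth muscle and myofibroblast markers were lower for 5 of 6, with Cnn1, Acta2, Tagln, Actg2 and Des between -5.35 and -3.57. Myh11, the remaining one, was higher in SPAD by 0.55. Fibroblast and progenitor markers were higher for 3 of 7 (Thy1 3.12, Dcn 1.87 and Pi16 1.51) and lower for 1 (Dlk1, -1.36), and Col1a1 differed by -0.99. Their part in the receptor differences was likewise not tested.

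**Figure D4:**
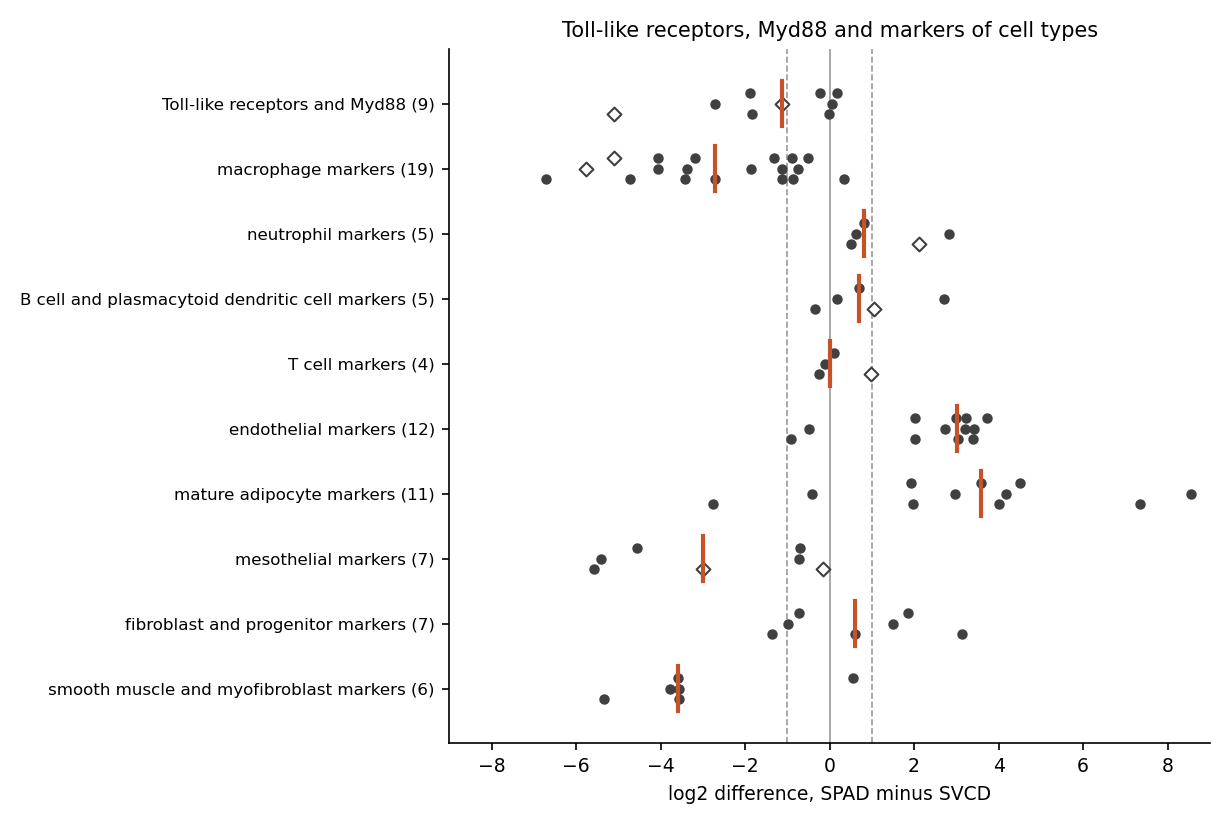
Log2 difference (SPAD minus SVCD) of each detected gene in the Toll-like receptor and Myd88 group and in 9 marker lists, with the number detected in brackets. Filled points were detected on both arrays, open diamonds are bounds, vertical bars are medians and dashed lines mark 2-fold. The macrophage median lies at -2.72 and that of the receptors and Myd88 at -1.13, while endothelial and adipocyte medians lie at 3.02 and 3.59.

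Beyond the members, 105 genes of the pathway had a probe and 97 were detected. Of these, 22 (22.7%) were at least 2-fold lower in SPAD and 9 (9.28%) at least 2-fold higher, against 14.1% and 16.3% of all detected genes, and their median was -0.20 against 0.06. Scaled to the spike-ins, the counts were 51 and 0. That scaling lowered genes in general, and 38.1% of all genes measured on both arrays were then at least 2-fold lower and 5.19% higher. The 22 lower genes in the main values included 6 of 12 sensors of other families and their signalling partners, and 5 of 15 genes that the pathway induces. They also included 1 of 19 kinases and ubiquitin ligases and 1 of 14 inhibitors.

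Of the remaining mouse receptors, Tlr13, which senses bacterial ribosomal RNA, gave 4292 in SPAD and 28380 in SVCD. This was a difference of -2.60 ± 0.08, close to that of Tlr8. Tlr11 and Tlr12 were detected on neither. Among 7 co-receptors and ligand-delivering genes with a probe, 3 were lower and 1 was higher, with a median of -0.08. Cd180, a receptor relative that resembles Tlr4, was seen in SVCD alone, at least 21.4-fold lower in SPAD, and its partner Ly86 differed by -2.23 ± 0.08. The alarmin gene Hmgb1 differed by -1.01, with 7 probes between -1.01 and -0.44. Genes that act with Tlr4 followed in the same list. Ly96, which encodes the MD-2 subunit that binds lipopolysaccharide with Tlr4, was 2.33-fold higher in SPAD (1.22 ± 0.08), and the lipopolysaccharide-binding protein gene Lbp differed by 0.43 ± 0.32. Cd14, whose product hands lipopolysaccharide to this complex, read 10420 and 10570, a difference of 0.10, chosen for mention after its values were seen.

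All 9 chaperones and endosomal proteases were detected, and 1 was lower, with a median of -0.37. That gene was Lgmn, a lysosomal protease that cleaves endosomal receptors (-1.47 ± 0.08). Unc93b1, which escorts the endosomal receptors from the endoplasmic reticulum, differed by -0.84 ± 0.08. The cathepsin genes Ctss, Ctsl and Ctsb differed by -0.65, -0.43 and -0.37, and Lrrc59 by 0.38. Of the adaptors, Tirap, which links Tlr2 and Tlr4 to Myd88, differed by 0.78 ± 0.09 and Ticam1 by -0.16 ± 0.10. Ticam2 was seen in SVCD alone, below the lowest SPAD signal well above background, and gives no fold, and Sarm1 was detected on neither array.

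Of 19 kinases and ubiquitin ligases, all detected on both arrays, 1 was lower and 2 were higher, with a median of 0.32. Ikbke, an interferon-pathway kinase, differed by -2.01 ± 0.14. Traf6, the ubiquitin ligase downstream of Myd88, was 2.64-fold higher in SPAD (1.40 ± 0.11), and Peli3 differed by 1.19 ± 0.32. Ripk1 differed by 0.99 and Map3k7, the kinase TAK1, by 0.92 on its brightest probe, but by 0.20 and -0.35 on its others. Scaled to the spike-ins, no kinase or ligase was at least 2-fold higher. Of 14 inhibitors, 1 was lower and 2 were higher, with a median of -0.15. Tnfaip3, the NF-kB-induced enzyme A20, was lower (-2.38 ± 0.09), whereas Socs3 (1.64 ± 0.08) and Nfkbib (1.24 ± 0.08) were higher. Tollip differed by 0.99, with probes from 0.65 to 1.28, and Cyld by -0.97 on one probe and -1.81 on the other.

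Transcription factors of the pathway were lower for 3 of the 11 detected and higher for none, with a median of -0.05. Irf5, which acts with Myd88 in myeloid cells, read 220.2 in SPAD and 2975 in SVCD, a difference of -3.63 ± 0.09. Fos, printed 10 times, differed by -1.42, Irf8, a factor of myeloid cells, by -1.19, Irf7 by 0.92 ± 0.32 and Rela, the NF-kB subunit, by 0.39. Of 15 induced genes detected, 5 were lower and 2 were higher, with a median of -0.46. The chemokine genes Ccl2, Ccl4 and Ccl3 differed by -6.41, -5.36 and -3.80, while the neutrophil-attracting Cxcl2 (1.59 ± 0.32) and Cxcl1 (1.48 ± 0.10) were higher in SPAD.

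Receptors of the interleukin-1 family, which also signal through Myd88, were lower for 1 and higher for 1 of 6 detected, with a median of -0.43. Il1r1, the interleukin-1 receptor, differed by -1.34 ± 0.10. Il1rl1, the interleukin-33 receptor, differed by 1.34 on its brightest probe but by 0.09 and -0.13 on its others. Il18r1 was seen in SPAD alone, and Il18rap and Il1rl2 in SVCD alone, each with a bound under 2-fold. Sensors of other families and their signalling partners were lower for 6 of 12 and higher for 1 (Ripk2, 1.15), with a median of -1.03. Pycard, the inflammasome adaptor, differed by -4.49 ± 0.09, Sting1, the adaptor for cytosolic DNA sensing, by -1.91, and Zbp1 by -1.87 ± 0.34. The RNA helicases Ddx58 (RIG-I) and Ifih1 (MDA5) differed by -1.56 and -1.53.

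**Figure D5:**
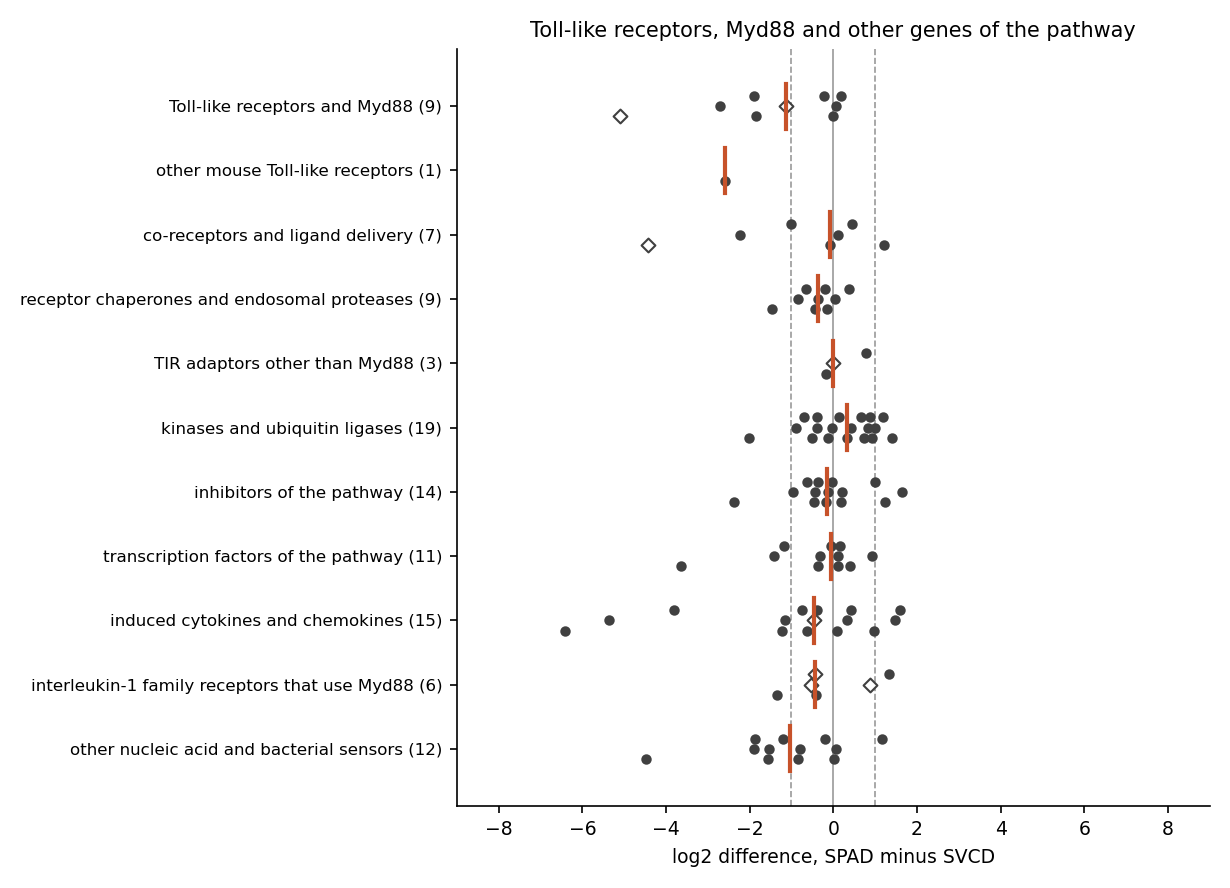
Log2 difference (SPAD minus SVCD) of each detected gene of the Toll-like receptor and Myd88 group and of 10 lists of pathway genes, with the number detected in brackets. Filled points were detected on both arrays, open diamonds are bounds, vertical bars are medians and dashed lines mark 2-fold. The medians run from -2.60 for the single other receptor and -1.03 for other sensors and their partners to 0.32 for kinases and ubiquitin ligases.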

How the data were processed

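Cy3-labelled cRNA from 30 ng RNA per group was hybridised to 1 Agilent array each, and scanned spots were read by the Agilent Feature Extraction software, version 10.7.3.1 (per the submitters' processing notes). Per the file headers, the deposited scanner values are background-subtracted intensities, 1 per spot. The authors' deposited value table is on a log2 scale with each probe centred on both arrays. Its differences equalled those used here to within 0.002, and no source used here states its scaling.

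Control spots and 73 (SPAD) and 85 (SVCD) outlier spots were left out, and repeat spots were averaged on the log2 scale. Signals were divided by each array's 75th percentile. Probes were named by transcript accession from a RefSeq gene table (GRCm38.p6, names and neighbours only). A gene was read from its brightest detected probe. A probe well above background on 1 array was set against the higher of its own dim signal and the lowest signal well above background there. Repeat-spot SDs came from probes with at least 8 usable spots. The steps were tested on simulated data. Python 3.11.15, R 4.3.3 and limma 3.58.1 were used.

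The members and lists were chosen with earlier results of these data known. Text names all members, up to 5 detected genes per list with the largest absolute difference, and Adgre1, Cd68, Csf1r, Ptprc, Pecam1, Cdh5, Adipoq and Pparg. Genes outside this rule were named after their values were seen. One B cell marker of the lists is not reported here. The other settings covered scaling, background correction, dim probes, the choice of probe and the deposited table.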

Additional observations from a re-analysis of the deposited data

How the results depend on the processing

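No paired analysis was possible because each group has 1 array. Of 11 other settings, 10 were chosen at the start. The normexp correction was chosen after seeing the data in this form, on spot medians with an offset of 50. The count of 5 members at least 2-fold lower became 3 with genes seen on 1 array left out, 4 with normexp and 6 with spike-in scaling; no setting put a member at least 2-fold higher. Among the 97 other pathway genes detected, bounds included, 22 lower and 9 higher became 51 and 0 with spike-in scaling. The shares of all genes measured on both arrays, without bounds, went from 13.3% and 14.4% to 38.1% and 5.19%. The median of the pathway genes, -0.20, became -1.03 with spike-in scaling, -0.32 without scaling and -0.10 with normexp. The spike-in shift rests on 8 probes. No member that was at least 2-fold lower changed sign in these settings. Of 82 other listed genes at least 2-fold apart, 2 changed sign, both with the dimmest detected probe, Il1rl1 to -0.13 and Cidec to -0.004. Signals near background limit Tlr1 and Tlr3 in SPAD and Tlr5 on both arrays.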
